A study of Sus scrofa with 16 samples.

Results

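The genes described here encode the surface and secreted molecules that a vessel wall presents when its endothelium is activated, together with their companions at the interface between blood and brain. The list held 10 genes, and 5 of them were found by symbol among the 22815 distinct entries of the deposited hippocampal RNA-seq table. These 5 were SELP (ENSSSCG00000006288), ICAM1 (ENSSSCG00000013655), VCAM1 (ENSSSCG00000006862), CLEC14A (ENSSSCG00000023760) and THBS1 (ENSSSCG00000004789). The other 5 genes gave no values. ICAM2 and THBD have an identifier in the reference table of gene names that matched no entry used here, and SELE, VWF and TAGLN2 have none paired with their symbol. They are not analysed here.

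RNA was measured in bulk tissue of the left hippocampus of 16 preterm pigs, crossbred animals delivered by caesarean section, fed human donor milk of several types beside parenteral nutrition and killed at the end of the neonatal study period. Necrotizing enterocolitis (NEC), an inflammatory disease of the immature gut, arose spontaneously, and each pig was classed by its gut lesions at tissue collection. The 5 No NEC pigs (2 female, 3 male) had no macroscopic lesions, the 5 Co-NEC pigs (2 female, 3 male) had severe lesions in the colon only, and the 6 Si-NEC pigs (3 female, 3 male) had severe small-intestinal lesions, whether or not the colon was affected. All groups shared preterm birth and this kind of feeding and care, and the lesions were not assigned by an experimenter. In each group 2 pigs carried a number ending in 14, and the others (3 No NEC, 3 Co-NEC and 4 Si-NEC pigs) a number ending in 15, and the labels do not say what the ending stands for.

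When endothelium meets inflammatory signals such as TNF or interleukin-1, it moves P-selectin from storage granules to its surface, makes E-selectin, and raises the transcription of ICAM1 and VCAM1 through NF-kB. Selectins let leukocytes roll along the wall, and ICAM1 and VCAM1 then bind leukocyte integrins and arrest them before they cross. In the resting brain this machinery is kept low, and VCAM1 is made by other cells besides endothelium.

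The study also measured genes of the list by quantitative PCR, among them ICAM1 and TAGLN2. Primers are printed for 3 of the genes found by symbol, as the means by which it measured them a further time. The same 3 genes stood in the list that the study drew from its comparison of Si-NEC with Co-NEC pigs, so that a difference between those groups here is not independent evidence of its direction. The primer letters are in lower case, 5′ to 3′, and no base is marked.
SELP forward: cctagcagggccattgac
SELP reverse: cccacccatcactaaacctg
CLEC14A forward: agaacgtggtcacccagtgt
CLEC14A reverse: tcctcgggaatagatgttgc
THBS1 forward: cagagagacaccgacatgga
THBS1 reverse: gtcaagctgatccggattgt
The PCR values are not analysed here. In the RefSeq annotation of a later pig assembly (Sscrofa11.1) ICAM1 lies beside ICAM4 and THBD beside CD93. The deposited values were made on Sscrofa10.2, and no coordinates are given for that reason.

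Levels are in FPKM, a fragment count scaled by transcript length and by sequencing yield. The sum of FPKM differed between the pigs, so levels of different pigs can be compared only in part. The table holds no read counts, so the depth behind each value is unknown. Differences are on the scale of log2(FPKM + 0.5), which understates the change of low genes, and each is given with its standard error (SE) from limma. A gene was called changed at an adjusted p under 0.2 (limma, Benjamini-Hochberg over the 13590 entries whose mean reached 0.5 FPKM). All 5 genes found by symbol passed this minimum, which was taken over the 16 pigs and not within a group. The two-sided exact permutation tests could not give less than p = 0.00216 for 6 against 5 pigs or p = 0.00794 for 5 against 5, and 15 comparisons of single genes were made. The p-values set each difference against the spread between these pigs, which were taken as independent. The study's pigs came from several sows, and the labels do not give the litter, so littermates could not be accounted for. In bulk tissue fewer endothelial cells and less RNA per cell cannot be told apart.

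The pigs were not alike as libraries. No NEC pig 230-15 and Si-NEC pig 223-15 had the highest sums of FPKM, 864931 and 823320 against 544629 to 645197 in the other pigs, and they were the pigs with the highest value for 26.3% and 17.5% of the entries tested. Neither was the highest pig for any of the 5 genes. Of 8 neuron markers 5 were found, and they summed to 881 to 1183 FPKM over the pigs of this hippocampal tissue. Of 14 endothelial markers 8 were found, and their summed level was 64.2 to 85.0 FPKM in No NEC, 54.5 to 66.7 in Co-NEC and 62.7 to 70.4 in Si-NEC pigs. A large part of this sum was EGFL7, with a mean of 29.8 FPKM over the pigs. The highest sum was that of No NEC pig 230-15, where EGFL7 had 62.9 FPKM. CDH5 and CLDN5, which define endothelium, were not among the 8. Platelets are a possible further source of SELP and THBS1 transcripts. Of 10 platelet and megakaryocyte markers only 4 had 1 entry, GP5, GP6, TREML1 and CLEC1B, and PF4 and PPBP were not among them. These 4 summed to at most 0.314 FPKM in any pig, and none reached the minimum level. The part of platelets in the SELP and THBS1 levels was not tested.

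Over all pigs VCAM1 had the highest mean level of the list, 28.9 ± 7.57 FPKM (SD, n = 16). CLEC14A (3.70 ± 1.501 FPKM), ICAM1 (2.86 ± 2.13), THBS1 (1.81 ± 1.10) and SELP (1.06 ± 0.722) were lower. The lowest VCAM1 value of any pig, 16.99 FPKM, lay above the highest value of each of these 4 genes, whereas neighbours among the 4 overlapped in their ranges over pigs.

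**Figure D1:**
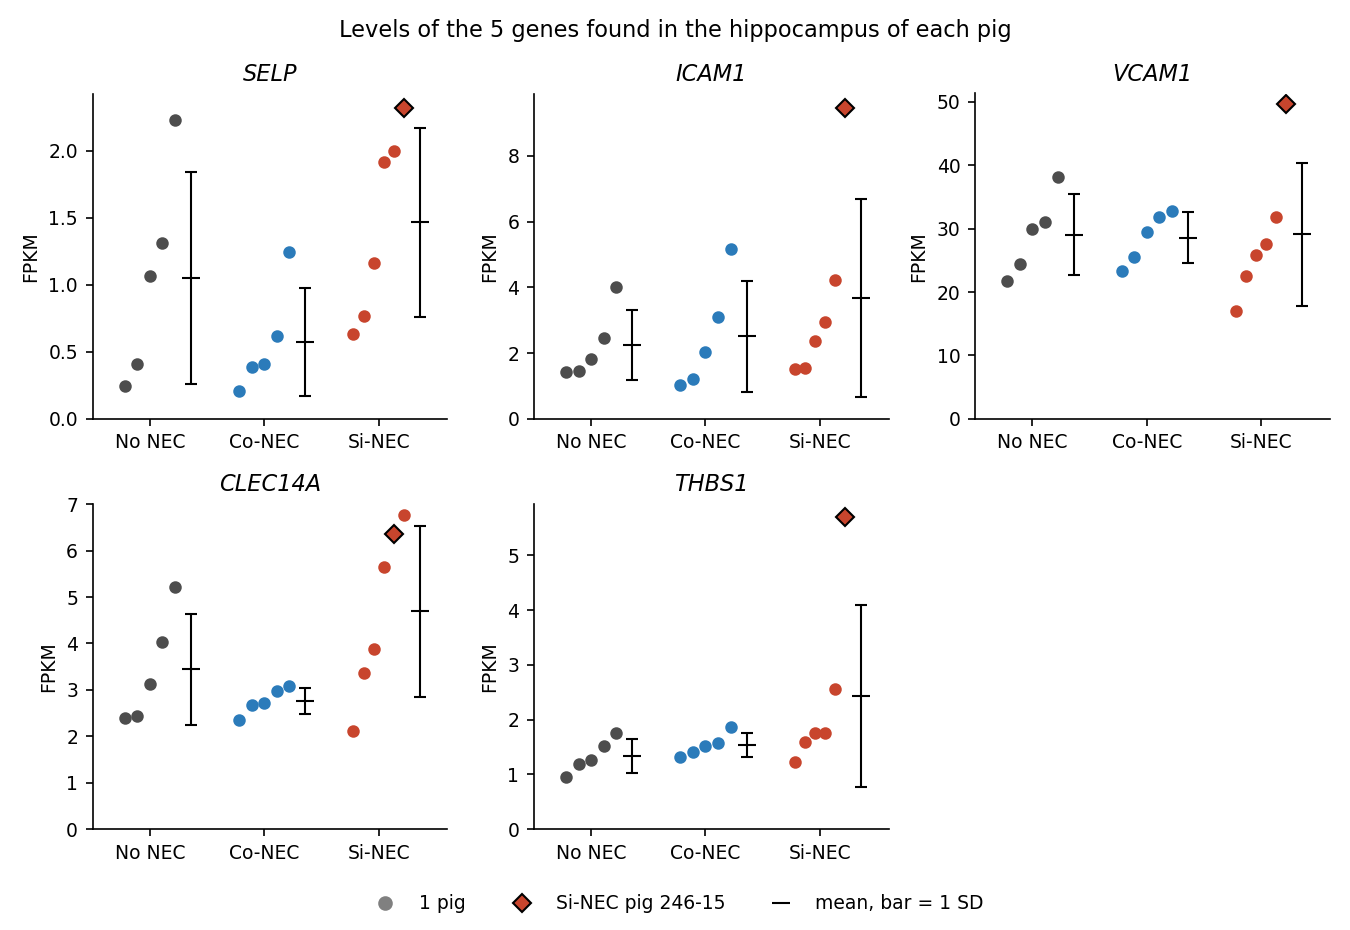
FPKM of SELP, ICAM1, VCAM1, CLEC14A and THBS1 (linear axes from 0) in each of 5 No NEC, 5 Co-NEC and 6 Si-NEC pigs, with the group mean and 1 SD beside the points. The diamond is Si-NEC pig 246-15, which was the highest of 16 pigs in every panel except CLEC14A, where it was second.

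SELP encodes P-selectin, the receptor that starts leukocyte rolling and is also carried by platelets. Its level was 0.246, 0.408, 1.06, 1.31 and 2.23 FPKM in the No NEC pigs. In the Co-NEC pigs it was 0.209, 0.389, 0.411, 0.623 and 1.25 FPKM, and in the Si-NEC pigs it ranged from 0.634 through a median of 1.54 to 2.32 FPKM. The No NEC pigs spanned nearly the whole range of the series, and 4 of 5 Co-NEC pigs lay below every Si-NEC pig, the exception being Co-NEC pig 231-15. Mean levels were 1.05 ± 0.793 (SD, n = 5), 0.575 ± 0.402 (n = 5) and 1.47 ± 0.705 FPKM (n = 6), respectively. The Si-NEC mean was 2.55 times that of Co-NEC pigs, a log2 difference of 0.86 ± 0.29 (SE), and all 6 Si-NEC pigs lay above the Co-NEC median. This was the only one of the 15 comparisons with an exact permutation p under 0.05 (two-sided p = 0.0325). It did not pass over all entries (limma, adjusted p = 0.851). Against No NEC the log2 difference was 0.41 ± 0.36 in Si-NEC pigs (exact permutation p = 0.312) and -0.44 ± 0.36 in Co-NEC pigs (exact permutation p = 0.302), neither larger than the spread between pigs. Both of these comparisons rest on the same 5 No NEC pigs. Without No NEC pig 228-15, which had the highest level of its group, the 2 differences were 0.66 and -0.20, and without No NEC pig 230-15, the lowest, they were 0.19 and -0.67. By leaving out any 1 pig the difference between Si-NEC and Co-NEC ranged from 0.73 to 1.05, with an unadjusted limma p under 0.05 each time (11 of 11). Its exact permutation p was less steady, from 0.0143 without Co-NEC pig 231-15 to 0.0714 without Co-NEC pig 255-15. It was also over 0.05 without Co-NEC pig 225-15, 545-14 or 552-14. The same held without Si-NEC pig 224-15, 226-15 or 246-15 (exact permutation p = 0.0635 each).

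ICAM1 encodes the ligand of the leukocyte integrins LFA-1 and Mac-1, by which arrested cells hold on. The No NEC pigs had 1.44, 1.46, 1.83, 2.46 and 4.01 FPKM and the Co-NEC pigs 1.03, 1.21, 2.03, 3.10 and 5.17 FPKM. The Si-NEC pigs ran from 1.51 through a median of 2.65 to 9.46 FPKM. All 3 groups overlapped, and the highest Si-NEC value, that of pig 246-15, was followed in its group by 4.22 FPKM. The log2 difference of Si-NEC was 0.44 ± 0.40 (SE) against No NEC and 0.40 ± 0.44 against Co-NEC, and that of Co-NEC against No NEC was 0.04 ± 0.37. None was larger than the spread between pigs (exact permutation p = 0.353, 0.448 and 0.921). Without pig 246-15 the first 2 became 0.14 and 0.10, and the mean of the remaining Si-NEC pigs, 2.52 FPKM, was 1.12 times that of No NEC and 1.003 times that of Co-NEC pigs.

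VCAM1 encodes the ligand of the integrin VLA-4. Its levels were 21.7, 24.4, 30.0, 31.1 and 38.1 FPKM in No NEC pigs and 23.3, 25.6, 29.4, 31.8 and 32.8 FPKM in Co-NEC pigs. The Si-NEC pigs ran from 16.99 through a median of 26.7 to 49.7 FPKM and held both the lowest and the highest pig of the series, 539-14 and 246-15. The group means were 29.1 ± 6.36 (SD, n = 5), 28.6 ± 4.06 (n = 5) and 29.1 ± 11.2 FPKM (n = 6). Their log2 differences were -0.05 ± 0.24 (SE) for Si-NEC and -0.01 ± 0.16 for Co-NEC against No NEC, whereas Si-NEC gave -0.04 ± 0.22 against Co-NEC. Exact permutation p was 0.859, 0.968 and 0.874. Leaving out 1 pig gave differences of both signs in all 3 comparisons, from -0.22 to 0.10.

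CLEC14A encodes a C-type lectin made almost solely by endothelium, where it takes part in vessel sprouting. The No NEC pigs had 2.40, 2.43, 3.14, 4.03 and 5.23 FPKM, and the Co-NEC pigs lay close together at 2.36, 2.68, 2.71, 2.98 and 3.08 FPKM. The Si-NEC pigs had the widest spread, from 2.12 through a median of 4.77 to 6.78 FPKM. Of the 6 Si-NEC pigs 5 lay above every Co-NEC pig, and the sixth, 547-14, lay below all of them and was the lowest of the series. The mean of Si-NEC, 4.69 ± 1.85 FPKM (SD, n = 6), was 1.70 times the 2.76 ± 0.283 FPKM of Co-NEC (n = 5), with a log2 difference of 0.59 ± 0.24 (SE), limma adjusted p = 0.867 and exact permutation p = 0.0671. Against the 3.45 ± 1.20 FPKM of No NEC pigs (n = 5) the log2 difference was 0.36 ± 0.28 for Si-NEC and -0.23 ± 0.19 for Co-NEC (exact permutation p = 0.268 and 0.317). Leaving out 1 pig, the former ran from 0.24 without Si-NEC pig 224-15 to 0.54 without 547-14, and the latter was -0.08 without No NEC pig 228-15. Without pig 547-14 the difference between Si-NEC and Co-NEC was 0.77 (exact permutation p = 0.00794, the smallest possible for 5 against 5 pigs). Without Si-NEC pig 224-15, which had the highest level, it was 0.47 (exact permutation p = 0.111). The unadjusted limma p stayed under 0.05 in 5 of the 11 fits that left out 1 pig.

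THBS1 encodes thrombospondin-1, a matrix glycoprotein released by platelets, endothelium and other cells that restrains angiogenesis and activates TGF-beta. Levels were 0.948, 1.19, 1.27, 1.53 and 1.75 FPKM in No NEC and 1.32, 1.41, 1.52, 1.57 and 1.87 FPKM in Co-NEC pigs. The Si-NEC pigs ran from 1.22 through a median of 1.76 to 5.70 FPKM. Pig 246-15 stood alone at the top, since the next Si-NEC pig had 2.57 FPKM. Of the Si-NEC pigs 4 lay above every No NEC pig. The log2 difference of Si-NEC against No NEC was 0.55 ± 0.29 (SE), with limma adjusted p = 1 and exact permutation p = 0.0736. Against Co-NEC it was 0.39 ± 0.28 (exact permutation p = 0.249), and Co-NEC against No NEC gave 0.16 ± 0.15 (exact permutation p = 0.254), but 0.08 without No NEC pig 230-15 and 0.11 without Co-NEC pig 225-15. Without pig 246-15 the mean of Si-NEC went from 2.43 to 1.78 FPKM, and its log2 differences were 0.30 against No NEC (exact permutation p = 0.0952) and 0.14 against Co-NEC. Without Si-NEC pig 547-14, the lowest of its group, they were 0.67 (exact permutation p = 0.0159) and 0.51.

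**Figure D2:**
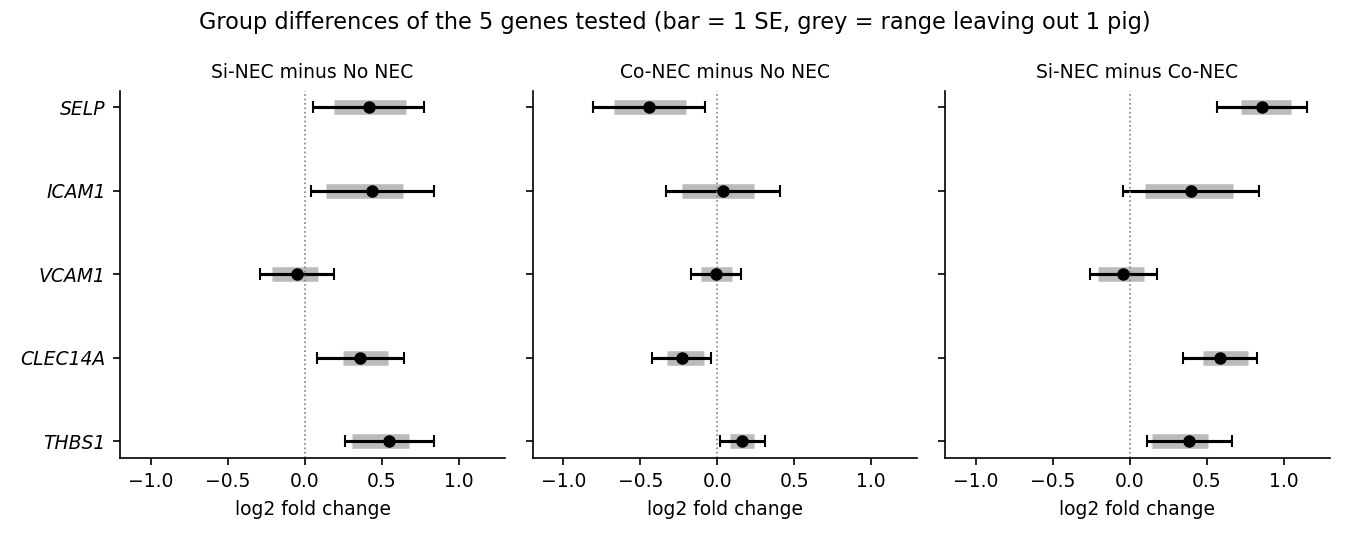
Log2 fold change (limma, on log2(FPKM + 0.5)) of the 5 genes found by symbol for each pair of groups, with 1 SE as bars and, in grey, the range when 1 pig is left out. SELP between Si-NEC and Co-NEC, at 0.86, is the largest difference drawn, and VCAM1 lies near 0 in all 3 panels.

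None of the 5 genes tested was called by limma in any of the 3 comparisons, and hardly any entry of the table was. Over all entries 0.00736% were called for Si-NEC and 0.00736% for Co-NEC relative to No NEC, and 0.0147% between Si-NEC and Co-NEC. At an unadjusted limma p under 0.05, no gene of the list passed in the comparisons with No NEC. The share of all entries that did was 1.59% higher and 1.02% lower for Si-NEC, and 2.12% higher and 1.32% lower for Co-NEC. Between Si-NEC and Co-NEC pigs 2 genes passed at that level, SELP and CLEC14A, both higher in Si-NEC, beside 3.25% of all entries higher and 2.40% lower. Exact permutation tests gave a p under 0.05 for 0, 0 and 1 of the 5 genes. The median log2 difference over the 5 genes was 0.41 in Si-NEC and -0.01 in Co-NEC when set against No NEC, and 0.40 between Si-NEC and Co-NEC, where the medians over all entries were 0.02, 0.01 and 4.82e-05. Without Si-NEC pig 246-15 the 2 medians that involve Si-NEC were 0.26 and 0.14. Of the 5 genes 4 had positive log2 differences in both comparisons that involve Si-NEC, all but VCAM1, and these comparisons share the Si-NEC pigs. Over all entries 53.8% had positive differences in Si-NEC against No NEC and 50.1% in Si-NEC against Co-NEC. The 4 genes are not separate counts, since Pearson's r between them over the pigs ran from 0.556 to 0.834.

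The values within the suffixes of the pig numbers were not alike. All pigs with the suffix 14 were male, and all female pigs had the suffix 15. The splits by suffix and by sex, here and in the correlations below, are therefore not independent of each other. Among pigs with the suffix 15, the log2 difference of Si-NEC (n = 4) against No NEC (n = 3) was 0.91 for SELP, 0.73 for CLEC14A and 0.78 for THBS1. Among those with the suffix 14 (2 against 2) it was -0.49, -0.35 and 0.09. Between Si-NEC and Co-NEC the SELP difference was positive in both, 1.05 with the suffix 15 and 0.42 with the suffix 14, whereas CLEC14A gave 0.93 and -0.07. By sex, the Si-NEC against Co-NEC difference of SELP was 1.03 in female and 0.65 in male pigs, and that of CLEC14A was 1.08 and 0.11. VCAM1 in Si-NEC against No NEC was 0.51 in female and -0.51 in male pigs. The test of the difference between the sexes (limma interaction) gave adjusted p = 0.484 for CLEC14A between Si-NEC and Co-NEC and adjusted p = 0.439 for VCAM1 between Si-NEC and No NEC, and no sex difference passed.

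**Figure D3:**
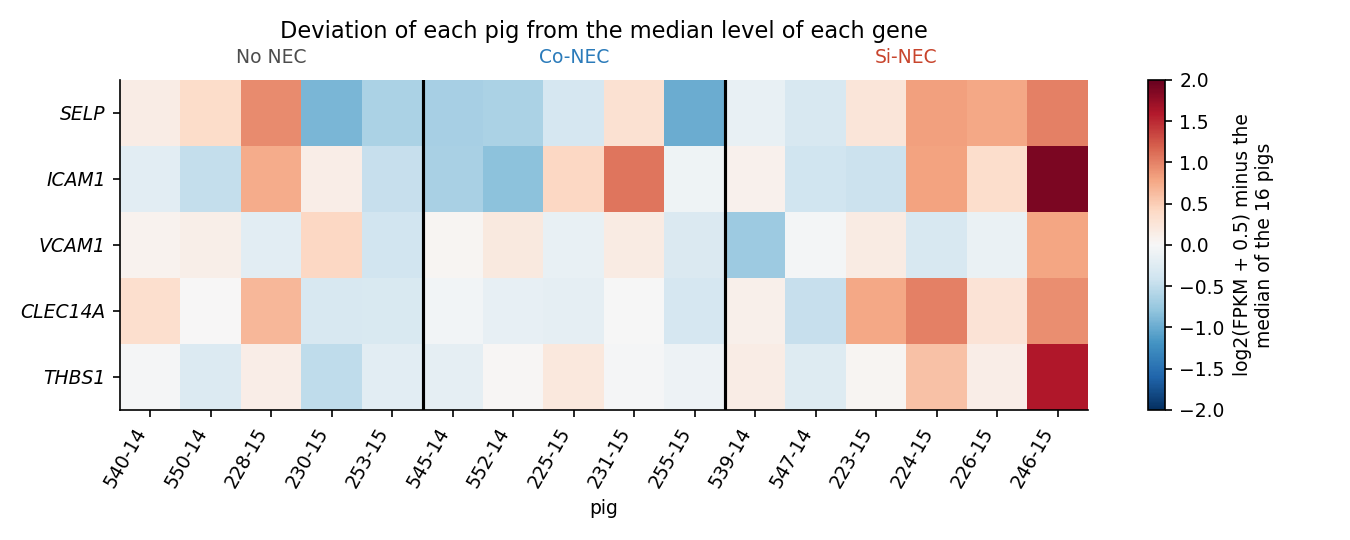
Deviation of each pig (columns, grouped by lesion class and ordered by suffix and number) from the median of the 16 pigs on the log2(FPKM + 0.5) scale, for 5 genes (rows), with red above and blue below the median. Si-NEC pig 246-15 is above the median in every gene, and No NEC pig 230-15 is at the low end in SELP and THBS1.

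Single pigs carried much of the pattern. Si-NEC pig 246-15 was the highest of all pigs in 4 of the 5 genes and second in CLEC14A, whereas it was the highest pig for 6.91% of all entries tested. Si-NEC pig 224-15 was among the top 3 in 4 of the 5 genes. Among pigs without gut lesions, No NEC pig 228-15 was second of 16 in SELP (2.23 FPKM), with 4.01 FPKM of ICAM1 and 5.23 FPKM of CLEC14A. No NEC pig 230-15 was the lowest of the series in THBS1 and second in VCAM1. Si-NEC pig 547-14, by contrast, never ranked above 9 of 16.

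SELP and CLEC14A went together over the pigs. Their log2 levels had Pearson's r = 0.834 (n = 16, permutation p = 7e-05, adjusted p = 0.00105 over 15 relations) with a rank correlation (Spearman's rho) of 0.829 (permutation p = 0.00012, adjusted p = 0.0018). When pigs 246-15 and 255-15, the 2 with SELP levels farthest from its median, were left out, r was 0.785 (permutation p = 0.00074), and with the group means removed it was 0.770. Within the suffixes r was 0.501 (suffix 14, n = 6) and 0.869 (suffix 15, n = 10), and by sex it was 0.882 in female (n = 7) and 0.709 in male pigs (n = 9).

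ICAM1 and THBS1 were related by Pearson's r = 0.758 (n = 16, permutation p = 0.0016, adjusted p = 0.00622), with rho = 0.582 (permutation p = 0.02, adjusted p = 0.062). Without pigs 246-15 and 231-15 r was 0.603 (permutation p = 0.0208, adjusted p = 0.0752), so that the relation rests in part on them. Within the suffixes 14 and 15 r was 0.439 (n = 6) and 0.785 (n = 10), and by sex it was 0.803 in female (n = 7) and 0.348 in male pigs (n = 9). No relation of VCAM1 to another gene of the list passed, with r between 0.145 and 0.316 (permutation p between 0.215 and 0.596, n = 16). Without pig 246-15 and one more, 255-15 for SELP and 539-14 for the others, all these values turned negative, and r was -0.242 with SELP, -0.239 with ICAM1, -0.175 with CLEC14A and -0.513 with THBS1 (permutation p = 0.0591 for THBS1). VCAM1 and THBS1 had r = 0.747 in female and -0.677 in male pigs, and VCAM1 and ICAM1 had -0.822 with the suffix 14 and 0.536 with the suffix 15. All genes of a pig share the FPKM scaling of that pig, and its part in the relations was not tested.

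**Figure D4:**
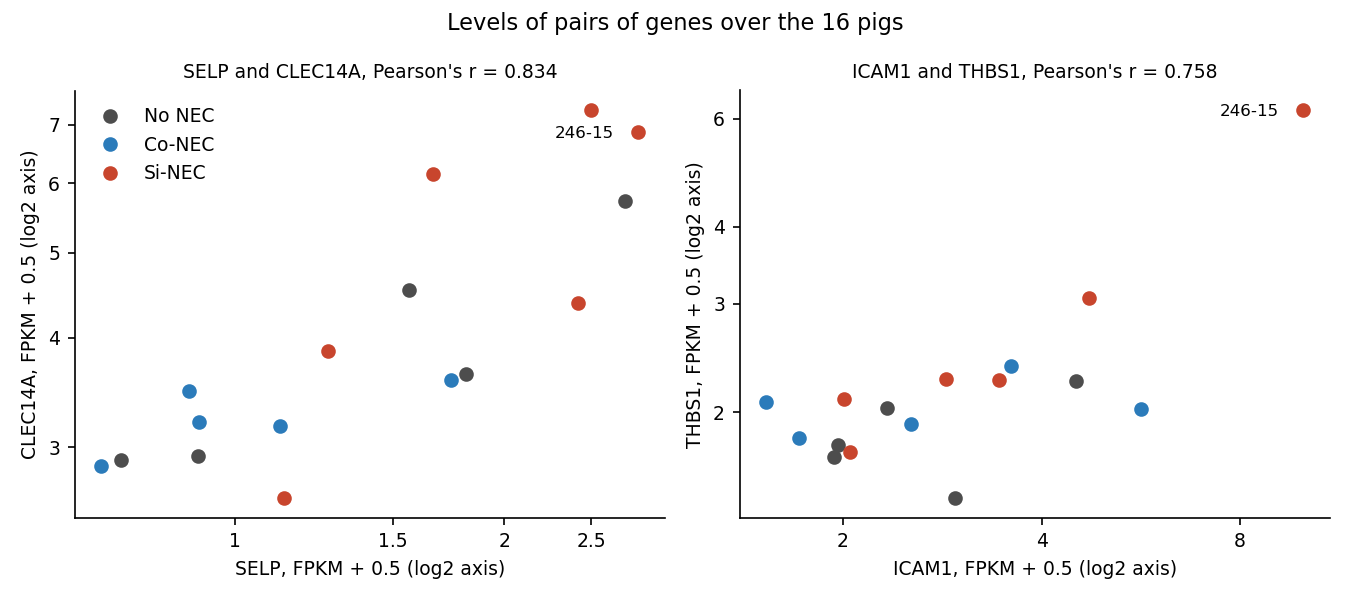
Levels of SELP against CLEC14A and of ICAM1 against THBS1 (FPKM + 0.5, both axes log2) in the 16 pigs, coloured by group. Pigs with more SELP have more CLEC14A over the 16 pigs (r = 0.834), and pig 246-15 stands apart in the plot of ICAM1 and THBS1 (r = 0.758).

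For each gene the 3 named entries with the most similar pattern over the 16 pigs were sought among 8507 candidates with a symbol and a mean of at least 1 FPKM, as a description. For SELP they were ADCY4 (Pearson's r = 0.878), CLEC14A (0.834) and FAM167B (0.830). For CLEC14A they were ECSCR (0.899), which encodes an endothelial surface protein, TGM3 (0.897) and RHOJ (0.895), a GTPase of endothelium. For ICAM1 they were FAM167B (0.892), SLC7A2 (0.867) and PLAT (0.835), the tissue plasminogen activator. For THBS1 they were ITGA5 (0.946), the alpha chain of the fibronectin receptor, EPHA2 (0.936) and the chemokine gene CCL2 (0.909). For VCAM1 they were NQO1 (0.860), CFLAR (0.858) and CCNL1 (0.833), none of which was shared with another gene of the list.

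Genes of the counter-receptors that leukocytes carry are in brain also made by resident cells, ITGAM and ITGB2 by microglia and ITGB1 and CD44 by neural cells. Of 13 counter-receptors and selectin ligands 7 were tested, and none of them had an unadjusted limma p under 0.05 or was called in any comparison. Between Si-NEC and Co-NEC pigs 6 of the 7 had positive log2 differences with a median of 0.04, beside 50.1% of all entries with positive differences. ITGB2, the beta chain shared by LFA-1 and Mac-1, had a mean of 6.88 FPKM over the pigs, and ITGAL and ITGAM, their alpha chains, 2.71 and 4.03 FPKM. ITGA4, the alpha chain of VLA-4, stood at 0.957 FPKM. ITGAM, ITGB2 and ITGB1 were highest in Si-NEC pig 223-15, which also had the highest sum of the 4 microglia markers found, 113 FPKM against 37.8 in the lowest pig, and the part of resident cells in these levels was not tested.

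Markers of blood leukocytes were highest in the same Si-NEC pig. Of 13 neutrophil and monocyte markers 8 were found and 3 tested, and their summed level ran from 10.9 to 17.4 FPKM in No NEC, 9.83 to 11.6 in Co-NEC and 8.48 to 53.4 in Si-NEC pigs, highest in pig 246-15. S100A8, an abundant neutrophil protein, had a log2 difference of 2.24 ± 0.55 (SE) in Si-NEC against No NEC and 2.47 ± 0.53 against Co-NEC (limma adjusted p = 1 and 0.634). CSF3R was listed at 0 in all pigs, and MPO, ELANE, LTF and MMP8 lay under the minimum level. S100A8 also stood in the study's own lists from these samples. The part of such cells in the values of the adhesion genes was not tested.

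In a list of other adhesion and transmigration receptors, not all of them particular to endothelium, 7 of 16 were tested and none was called. PECAM1, through which leukocytes cross the junction, had 9.79 ± 2.71 FPKM (SD, n = 6) in the Si-NEC group and 6.75 ± 1.10 FPKM (n = 5) in the Co-NEC group, a log2 difference of 0.48 ± 0.18 (SE, limma adjusted p = 0.858). It was highest in pig 246-15 and was in the study's list of that comparison. The other 6 included F11R, ALCAM and JAM3, at -0.22, -0.18 and -0.12 in the same comparison, and the median over the 7 was -0.12. Over the 8 endothelial markers found, the median log2 difference was -0.05 in Si-NEC and -0.07 in Co-NEC relative to No NEC, and 0.07 between Si-NEC and Co-NEC. ERG, an endothelial transcription factor, had a log2 difference of -0.42 ± 0.17 in Si-NEC against No NEC (limma adjusted p = 1). With the mean of these markers subtracted from each pig, the log2 difference between Si-NEC and Co-NEC was 0.81 for SELP and 0.54 for CLEC14A. Without it they were 0.86 and 0.59. The subtraction moves every gene of a comparison by the same amount, so it cannot show the part of endothelial content. Over the 16 pigs the marker mean had Pearson's r = 0.542 with SELP (permutation p = 0.029, adjusted p = 0.0622). With CLEC14A it had r = 0.391 (permutation p = 0.132). The part of endothelial content in these differences was not tested.

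Of 18 genes that induce or carry endothelial activation 9 were tested. In Si-NEC against No NEC 8 of the 9 had positive log2 differences, with a median of 0.28, beside 53.8% of all entries with positive differences. None of the 9 had an unadjusted limma p under 0.05 and none was called. ANGPT2, the vessel-destabilising angiopoietin stored with P-selectin, averaged 2.72 ± 1.47 FPKM (SD, n = 6) in the Si-NEC and 1.72 ± 0.457 FPKM (n = 5) in the No NEC group, a log2 difference of 0.45 ± 0.27 (SE, limma adjusted p = 1). NFKBIA, the NF-kB inhibitor that NF-kB itself induces, gave 0.32 ± 0.27 (limma adjusted p = 1) and IL1R1, the interleukin-1 receptor, 0.24 ± 0.20. Of the 9 genes 5 had their highest value in pig 246-15, among them ANGPT2 with 5.40 FPKM and NFKBIA with 33.1 FPKM. IL6 and TNFRSF1B were listed at 0 in all pigs.

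THBD and VWF act in haemostasis at the vessel wall, and of 13 other genes of coagulation and fibrinolysis 8 were tested and none was called. TFPI2, an inhibitor of tissue factor pathway proteases, had a log2 difference of 0.44 ± 0.19 (SE) in Si-NEC against Co-NEC (limma adjusted p = 0.867). ANXA2, the annexin that binds plasminogen activator, had -0.38 ± 0.16 in Co-NEC against No NEC (limma adjusted p = 0.812). The lectins related to CLEC14A were higher in the mean of Si-NEC pigs too. CD93 had 10.6 ± 1.33 FPKM (SD, n = 6) against 7.72 ± 1.92 FPKM in Co-NEC (n = 5), a log2 difference of 0.45 ± 0.15 (SE, limma adjusted p = 0.851), and CD248 one of 0.46 ± 0.25 (limma adjusted p = 0.867). MMRN2, a matrix ligand of CLEC14A, had a mean of 0.441 FPKM and was not tested.

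Among relatives of THBS1, THBS2 had a log2 difference of -0.23 ± 0.13 (SE) in Si-NEC against No NEC (limma adjusted p = 1) and THBS4 one of -0.11 ± 0.19. TGFB1, which thrombospondin-1 activates as a protein, had 0.17 ± 0.17. Among relatives of TAGLN2, which encodes the actin-binding protein transgelin-2, TAGLN of smooth muscle had 17.1 ± 7.73 FPKM (SD, n = 6) in the Si-NEC and 10.1 ± 3.45 FPKM (n = 5) in the Co-NEC group, a log2 difference of 0.67 ± 0.31 (SE, limma adjusted p = 0.867), and it also stood in the study's list. All 3 tested members of the transgelin and calponin family were highest in pig 223-15. Mural cell markers, which include TAGLN, had positive log2 differences of Si-NEC in 6 of the 7 tested both against No NEC and against Co-NEC. Their medians were 0.26 and 0.23 and none was called. Over all entries 53.8% and 50.1% had positive differences in these 2 comparisons.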

How the data were processed

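Hippocampal RNA of 16 pigs (5 No NEC, 5 Co-NEC, 6 Si-NEC) was sequenced. The authors trimmed the paired reads, aligned them to Sscrofa 10.2 with TopHat2 2.1.1 and estimated the deposited FPKM values with Cufflinks 2.2.1. Any scaling between pigs is not given in the sources used here, and without counts no depth, interval or detection limit could be computed.

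Groups came from the sample labels. Of 24594 entries, 1779 identical ones were dropped. Members were joined by symbol through the reference table of gene names. Pairwise limma 3.58.1 fits (R 4.3.3, eBayes with trend, no covariate) used log2(FPKM + 0.5) of the 13590 entries averaging 0.5 FPKM or more, with an adjusted p under 0.2 as threshold, as in the study. The fits were tested on simulated data. Single genes had two-sided exact permutation tests, and correlations 100000 permutations, adjusted over 15 relations. Python 3.11.15, scipy 1.17.1 and matplotlib 3.10.9 were used.

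Named were all members found, at most 4 genes of a list by smallest p in a comparison, and the 3 entries most like each member. Marker ranges and single genes beyond these were chosen after their values were seen. The members and lists were chosen with earlier results of these data known. Alternatives covered pseudocount, filter, scaling, joint fit, covariates for sex and suffix, eBayes options, array weights, endothelial markers and each pig left out.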

Additional observations from a re-analysis of the deposited data

How the results depend on the processing

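No gene of the list passed an adjusted p of 0.2, or of 0.05, in any alternative run. Over 355 refits of single genes 335 kept their sign and 20 changed it, all 20 of VCAM1 or ICAM1. For VCAM1, Si-NEC against No NEC turned to 0.012 without pigs 223-15 and 230-15, and Co-NEC against No NEC turned to 0.087 with array weights, to 0.095 without pigs 223-15 and 230-15 (in that comparison 230-15 alone) and to 0.055 with the endothelial marker mean subtracted. Leaving out 1 pig, VCAM1 ranged from -0.22 to 0.087 for Si-NEC and from -0.10 to 0.095 for Co-NEC against No NEC, and from -0.21 to 0.10 between Si-NEC and Co-NEC, and ICAM1 of Co-NEC against No NEC from -0.23 to 0.24. The cause was not tested.

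At an unadjusted limma p under 0.05, Si-NEC against No NEC had 0 genes, but 1, THBS1, with all 3 groups in one fit and with the endothelial marker mean subtracted, and 0 to 1 when 1 pig was left out (1 without Si-NEC pig 547-14). Between Si-NEC and Co-NEC it had 2 genes, but 1, SELP, without pigs 223-15 and 230-15, and 1 to 2 when 1 pig was left out. The count was 1 without Co-NEC pig 225-15, 552-14 or 255-15 and without Si-NEC pig 223-15, 224-15 or 246-15. The medians over the 5 genes moved by less than the spread between single pigs (SD 0.394). That measure is wide for this use, since 1 pig left out moves a group mean by only part of its own deviation. It therefore does not show that the medians were stable. Leaving out 1 pig, that of Si-NEC against No NEC (0.41) was 0.26 without 230-15 or 246-15, 0.27 without 253-15 and 0.63 without 228-15, that of Si-NEC against Co-NEC (0.40) was 0.14 without 246-15 and 0.62 without 231-15, and that of Co-NEC against No NEC (-0.01) ran from -0.23 without 231-15 to 0.08 without 230-15. The median of Si-NEC against No NEC was also 0.23 with array weights and 0.22 without 223-15 and 230-15, and array weights gave 0.19 for CLEC14A in that comparison.

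Over all entries, array weights gave 201 calls in place of 2 between Si-NEC and Co-NEC and 4 in place of 1 for Si-NEC against No NEC, and testing without a filter gave 4 in place of 1 for Co-NEC against No NEC. At unadjusted p under 0.05, Co-NEC against No NEC had 288 entries higher and 179 lower, and 252 and 275 after rescaling each pig by the median of ratios. Subtracting the endothelial markers gave 154 higher and 372 lower between Si-NEC and Co-NEC in place of 441 and 326, 643 and 32 for Co-NEC against No NEC, and 212 and 53 in place of 216 and 139 for Si-NEC against No NEC. Between Si-NEC and Co-NEC the split also turned to 949 higher and 1210 lower with array weights and to 571 and 633 without 223-15 and 230-15. No paired analysis was possible because the labels give the groups no shared numbers. The depth is unknown, so what it limits could not be assessed.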
